A study of Rattus norvegicus with 24 samples.

Results

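Collagen genes were taken as every gene whose symbol is Col, a number, the letter a and a number, that is, each gene for a chain of a numbered collagen type. The rule found 44 genes among the 36856 genes measured in rat kidney papilla and heart ventricle. By collagen class, 11 encode fibrillar chains, 6 type IV chains, 6 type VI chains, 9 fibril-associated (FACIT) chains, 3 short-chain collagens (types VIII and X), 2 multiplexins (types XV and XVIII), 4 transmembrane collagens (types XIII, XVII, XXIII and XXV) and 3 other collagens (types VII, XXVI and XXVIII). The number of collagens that passed the expression filter was 34 for aldosterone against control, 34 for low against high salt in the papilla and 32 for low against high salt in the ventricle. 29 were tested in all 3 of these comparisons. The 7 tested in none of them were Col2a1, Col6a4, Col6a5, Col9a1, Col22a1, Col26a1 and Col28a1.

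Collagens are the main structural proteins of the extracellular matrix, and each molecule is a trimer of chains wound into a triple helix. Fibrillar collagens, chiefly types I and III, form the fibers of the interstitial matrix and are made mainly by fibroblasts. Type IV collagen forms the sheet-like network of basement membranes under epithelia, around capillaries and around cardiac myocytes, type VI forms beaded microfibrils between basement membranes and the interstitium, and FACITs bind to the surface of fibrils. In the kidney and the heart, mineralocorticoid excess with salt is known for raising interstitial collagen, which is the background to asking how these genes behave when the hormone or the dietary Na is changed.

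The study asked which genes in kidney and heart depend on aldosterone and on dietary Na. It comprised 24 polyA RNA libraries in 6 groups of 4 Sprague-Dawley rats of 120 to 200 g. Aldosterone rats carried an osmotic minipump delivering 12 µg of the hormone per day and ate a diet with 0.4% Na for 7 days, and control rats ate the same diet. The labels do not say whether the controls carried a pump. In the other experiment, low-salt rats ate 0.01 to 0.02% Na for 7 days and high-salt rats ate 0.4% Na. The 0.4% diet is the control diet of the protocol and is named high salt in the sample titles. The papilla, the tip of the renal medulla, was taken for aldosterone, control, low-salt and high-salt kidney libraries, and a piece of ventricle for low-salt and high-salt heart libraries. Batch 1 holds replicates 1 and 2 of each group, and batch 2 holds replicates 3 and 4. Whether a rat gave both tissues is not stated in the labels. The p-values measure the spread between the 4 rats of a group, left after a batch term in every main fit but that of papilla against ventricle. The main fits over both tissues take their libraries as independent. Both tissues are mixtures, so that fewer cells of a type and less RNA per cell cannot be told apart in any of the results.

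Library totals lay between 24299144 and 38318489 expected counts. Collagens took 0.256 to 0.264% of all counts in the 4 aldosterone libraries and 0.216 to 0.263% in the 4 control libraries. In the papilla they took 0.237 to 0.268% on low salt and 0.234 to 0.301% on high salt, and in the ventricle 0.221 to 0.395% on low salt and 0.341 to 0.443% on high salt. The labels give all rats as female. The aldosterone and control libraries held Xist, the RNA of the inactive X chromosome, at 239 to 454 CPM (counts scaled to a common library size) and the sum of 4 Y-linked genes (Uty, Kdm5d, Eif2s3y, Ddx3y) at 0.0346 to 0.319 CPM. The 16 low-salt and high-salt libraries went against the label, with Xist at 0 to 0.0913 CPM and the Y-linked genes at 144 to 275 CPM. This difference lies between the experiments and not within them. The tissue labels held: collecting duct genes summed to 9587 CPM or more in every papilla library and to 38.6 CPM or less in every ventricle library, and cardiomyocyte genes to 52070 CPM or more in every ventricle library. In addition, high-salt ventricle replicate 2 held genes of the kidney, with the collecting duct water channel Aqp2 at 21.0 CPM and the thick ascending limb protein Umod at 47.9 CPM. Values without it are given beside Col12a1, Col27a1 and some of the counts and medians of collagens. The other ventricle counts and values include it. DESeq2 was not run without it.

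The promoters of 35 of the 44 collagens were matched in RefSeq on the build GRCr8, as 300 bases from 250 before to 50 after the transcription start. Those of Col4a1 and Col4a2 are shown because these chains assemble into 1 molecule, their genes lie head to head and their counts kept a ratio of 0.992 to 1.34 over all 24 libraries. Those of Col6a3 and Col27a1 are shown because these genes passed a threshold in the comparisons of treatments. Capitals mark matches, on either strand, of CCAAT (the CCAAT box), of GGGCGG (the GC box), of CAGAC (a Smad motif) and of TATAAA (the TATA box), none of which overlap in these 4 windows. On the other strand a match reads ATTGG for the CCAAT box, CCGCCC for the GC box, GTCTG for the Smad motif and TTTATA for the TATA box. The windows are chr16:84885347-84885646 on the plus strand for Col4a1, chr16:84885471-84885770 on the minus strand for Col4a2, chr9:98886909-98887208 on the minus strand for Col6a3 and chr5:81662658-81662957 on the plus strand for Col27a1.
Col4a1: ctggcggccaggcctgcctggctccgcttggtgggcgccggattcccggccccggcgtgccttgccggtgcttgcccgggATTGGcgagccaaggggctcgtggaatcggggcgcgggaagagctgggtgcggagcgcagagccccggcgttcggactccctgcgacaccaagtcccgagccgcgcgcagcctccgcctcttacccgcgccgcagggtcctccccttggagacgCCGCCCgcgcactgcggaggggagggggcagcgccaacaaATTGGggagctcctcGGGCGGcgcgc
Col4a2: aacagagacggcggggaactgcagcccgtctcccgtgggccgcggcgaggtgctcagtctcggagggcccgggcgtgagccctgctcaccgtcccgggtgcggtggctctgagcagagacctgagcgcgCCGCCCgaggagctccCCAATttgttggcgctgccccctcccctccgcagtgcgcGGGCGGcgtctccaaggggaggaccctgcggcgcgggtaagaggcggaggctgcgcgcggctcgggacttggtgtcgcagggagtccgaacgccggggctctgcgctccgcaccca
Col6a3: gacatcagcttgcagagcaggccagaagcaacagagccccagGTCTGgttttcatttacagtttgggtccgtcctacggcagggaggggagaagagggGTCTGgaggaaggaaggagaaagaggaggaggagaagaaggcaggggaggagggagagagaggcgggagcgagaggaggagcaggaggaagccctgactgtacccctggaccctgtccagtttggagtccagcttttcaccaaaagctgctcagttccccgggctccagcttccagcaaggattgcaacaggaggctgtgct
Col27a1: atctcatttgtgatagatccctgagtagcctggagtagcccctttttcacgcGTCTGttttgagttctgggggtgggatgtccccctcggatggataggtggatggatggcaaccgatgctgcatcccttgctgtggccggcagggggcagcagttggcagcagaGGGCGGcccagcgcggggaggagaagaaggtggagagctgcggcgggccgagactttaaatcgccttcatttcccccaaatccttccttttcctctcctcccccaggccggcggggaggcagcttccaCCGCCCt
The starts of Col4a1 and Col4a2 lie 77 bases apart on opposite strands, so their windows share 176 bases and the CCAAT and GGGCGG matches in that stretch. Neither of them held CAGAC or TATAAA, whereas Col6a3 held CAGAC at 2 places and none of the other motifs. Col27a1 held GGGCGG at 2 places and CAGAC at 1. GGGCGG occurred in 54.3% of the matched collagens and in 33.1% of the 33469 rat promoters of this length. The shares of collagens and of all promoters were 31.4% and 37.5% for CCAAT, 40% and 50.1% for CAGAC, and 11.4% and 14.2% for TATAAA. These matches describe the letters and were not tested for binding. The pairs Col4a3 with Col4a4 and Col4a5 with Col4a6 also lie head to head, with starts 413 and 1415 bases apart.

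On high salt, the papilla and the ventricle held different collagens. In the ventricle the fibrillar and type VI chains were mostly higher, and in the papilla the type IV chains Col4a3, Col4a4, Col4a5 and Col4a6 and the multiplexin Col18a1 were higher. Of the 35 collagens tested, 12 were higher and 19 lower in the papilla than in the ventricle at an adjusted p under 0.05 in edgeR's quasi-likelihood test with Benjamini-Hochberg adjustment, where 77.8% of all 18175 genes tested passed (41.1% higher and 36.7% lower). The share of collagens called is thus close to the background, and the counts are given by class and direction. All 4 type VI genes tested were lower in the papilla, as were 7 of 10 fibrillar genes, with 2 higher. Of the 6 type IV genes, 4 were higher and 2 lower. The median log2 difference, papilla minus ventricle, was −1.35 over the collagens and 0.13 over all genes. The collagen median depended on which libraries and genes entered: it was −0.65 without ventricle replicate 1, −0.83 without ventricle replicate 3, −1.05 without ventricle replicate 2, −2.05 and −2.42 without papilla replicates 1 and 2, and −2.696 with a minimum of 1 CPM in 4 libraries. The CPM values of this comparison were scaled together over the 8 high-salt libraries with edgeR's TMM factors, which lay at 1.33 to 1.39 in papilla and 0.723 to 0.751 in ventricle libraries.

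Type III collagen, which with type I makes up most interstitial fibers, showed this plainly. Col3a1 lay at 27.9, 21.9, 17.3 and 8.47 CPM in the papilla libraries, against 2218, 1780, 1361 and 1492 CPM in the ventricle libraries. Col1a1, a type I chain, lay at 11.1, 11.0, 3.72 and 5.57 CPM in the papilla and at 530, 437, 440 and 392 CPM in the ventricle. The ranges are far apart for both genes, and within the papilla the spread between rats was as large as several fold. The log2 differences were −6.50 ± 0.40 for Col3a1, −5.84 ± 0.38 for Col1a1 and −4.27 ± 0.18 for Col1a2, the other type I chain (fit ± SE, n = 4 each). Type V chains, which regulate the start of fibrils, were lower in the papilla too, with −2.84 for Col5a1, −3.30 for Col5a2 and −6.14 for Col5a3. The 2 fibrillar genes higher in the papilla were Col11a1, a chain of the cartilage-type fibril, and Col27a1, a fibrillar chain known from cartilage. Col11a1 averaged 22.4 ± 7.78 CPM in the papilla and 0.199 ± 0.124 CPM in the ventricle, and Col27a1 31.5 ± 4.00 and 10.2 ± 3.10 CPM (SD, n = 4 each).

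Type IV chains ran in both directions, and Col4a5 differed less between the tissues than the others. Col4a1, of the network found in nearly all basement membranes, lay at 105, 135, 90.8 and 81.6 CPM in the papilla, against 829, 768, 615 and 561 CPM in the ventricle. Its partner Col4a2 averaged 92.1 ± 14.1 CPM in the papilla and 612 ± 64.5 CPM in the ventricle. By contrast Col4a3, which with Col4a4 and Col4a5 forms the network affected in Alport syndrome, lay at 373, 347, 652 and 516 CPM in the papilla, against 19.9, 26.2, 22.7 and 22.3 CPM in the ventricle. No value of Col4a3 in the papilla came near the ventricle range. The differences were 4.37 ± 0.22 for Col4a3, 3.98 ± 0.24 for Col4a4, 0.69 ± 0.13 for Col4a5 and 3.20 ± 0.20 for Col4a6.

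Type VI chains were lower in the papilla by different amounts. Col6a1 lay at 6.50, 9.22, 5.56 and 5.76 CPM in the papilla, against 218, 214, 243 and 259 CPM in the ventricle, a log2 difference of −5.11 ± 0.18, and Col6a2 differed by −4.68 ± 0.12. Col6a3, the large chain that joins them in the trimer, averaged 9.27 ± 1.40 CPM in the papilla and 65.7 ± 5.65 CPM in the ventricle, a difference of −2.82 ± 0.13. The ratio of Col6a3 to Col6a1 counts was 1.13 to 1.61 in the papilla and 0.227 to 0.331 in the ventricle. Ratios of counts from genes of different length show unequal change between tissues and not the chains' stoichiometry. The ratio of Col1a1 to Col1a2 counts differed as well, at 0.211 to 0.404 in the papilla and 0.955 to 1.11 in the ventricle, whereas that of Col4a1 to Col4a2 stayed in the narrow range given with their promoters.

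Among the remaining classes, Col18a1, the basement membrane multiplexin from which endostatin is cut, lay at 723, 694, 870 and 924 CPM in the papilla, against 38.4, 54.7, 33.8 and 40.0 CPM in the ventricle. The other multiplexin, Col15a1, was opposite, with 11.9 ± 5.35 CPM in the papilla and 208 ± 28.4 CPM in the ventricle (SD, n = 4 each). FACITs also ran in both directions. Col14a1 averaged 0.368 ± 0.234 CPM in the papilla and 94.3 ± 25.5 CPM in the ventricle, and Col12a1 averaged 16.6 ± 1.90 and 3.93 ± 2.43 CPM. The ventricle mean of Col12a1 includes 7.58 CPM in the library with kidney genes, against 2.67 to 2.80 CPM in the other 3. The short-chain pair split too, with Col8a1 at −5.04 and Col8a2 at 2.01 on the log2 scale. Type IX chain Col9a2, hemidesmosome collagen Col17a1 and anchoring-fibril collagen Col7a1 were higher in the papilla by 4.47, 1.42 and 2.54. Col9a2 averaged 2.65 CPM in the papilla, against 0, 0.350, 0.0916 and 0 CPM in the ventricle, the highest in the library with kidney genes. Its difference rests on these low values, and leaving out each library gave 4.08 to 6.22. Without the library with kidney genes 32 collagens were called, and Col12a1 differed by 2.60, against 2.07 ± 0.34 with it. Of the 31 calls, that of Col13a1 (−1.35 ± 0.46, adjusted p = 0.0230) was lost with the replicate number as a block, at an adjusted p of 0.0551, without ventricle replicate 3 (0.0809), papilla replicate 2 (0.0614) or papilla replicate 3 (0.0544), and when scaled by library totals (0.364). Scaled by library totals alone, an alternative chosen after seeing the data, the median of all genes moved to 1.02 and that of the collagens to −0.46, and the split was 14 higher and 17 lower. Col16a1 (−0.61 ± 0.20) turned to 0.28 under that scaling.

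**Figure D1:**
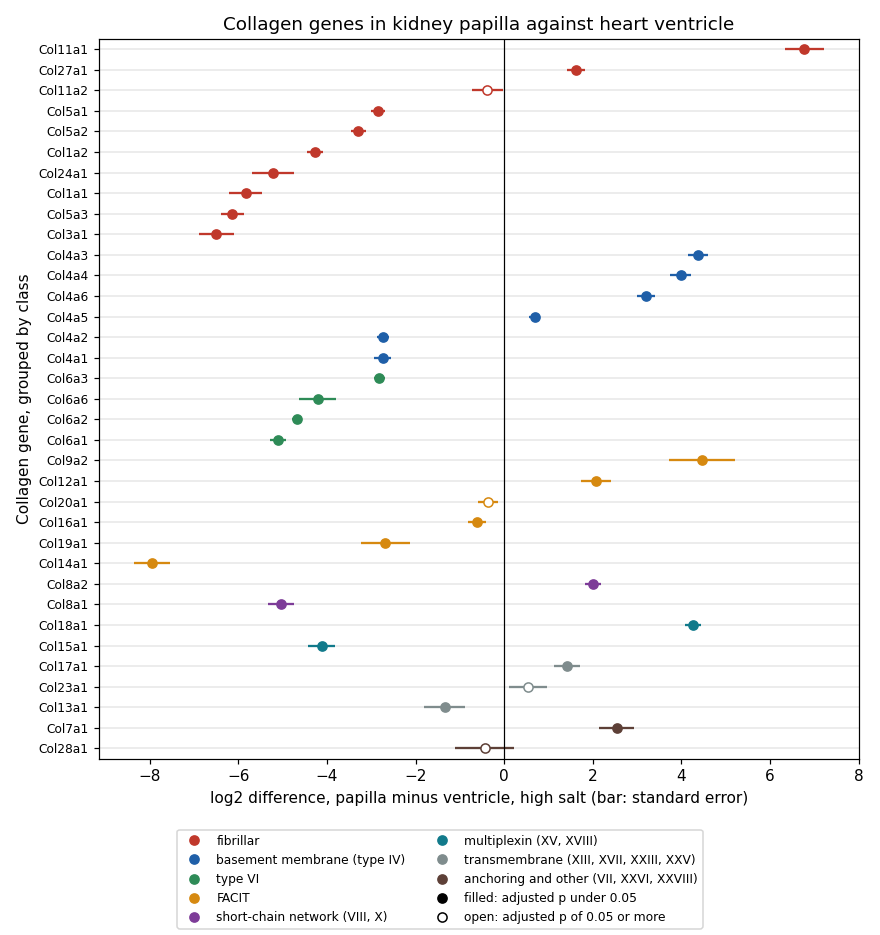
Log2 difference of each tested collagen between papilla and ventricle on high salt (papilla minus ventricle, fit ± SE, 4 libraries each), grouped by class; filled points have an adjusted p under 0.05 and the vertical line marks no difference. Col14a1 lies farthest to the ventricle side at −7.96 and Col11a1 farthest to the papilla side at 6.78, and type IV and multiplexin genes lie on both sides.

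As shares of all collagen counts, which depend on transcript length as well as on the number of transcripts, type IV took 46.4 ± 2.81% in the high-salt papilla and 27.1 ± 1.45% in the high-salt ventricle. Multiplexins took 42.3 ± 2.83% and 4.75 ± 0.0553%, mostly Col18a1 in the papilla and Col15a1 in the ventricle. Fibrillar collagens took 7.16 ± 1.99% in the papilla and 54.8 ± 2.49% in the ventricle, and type VI took 1.37 ± 0.364% and 10.5 ± 1.84% (SD, n = 4 each). Fibroblast genes that are not collagens moved the same way, with 9 of 9 lower in the papilla, and their part in the collagen differences was not tested.

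Genes that make and bind collagen ran in both directions between the tissues. Of all genes tested 77.8% were called (41.1% higher and 36.7% lower), and the counts of each list are to be read beside these shares. Of the processing and crosslinking genes 1 was higher and 9 lower of 12 in the papilla, among them Adamts2 (−5.18 ± 0.20), which cleaves the amino-terminal propeptide, the crosslinking enzyme Lox (−2.74) and Pcolce (−1.40), the enhancer of carboxy-terminal cleavage. Of the 18 folding genes 6 were higher and 7 lower, with the collagen chaperone Serpinh1 at −2.57 ± 0.13 and P3h2, a prolyl 3-hydroxylase that acts on type IV collagen, at 4.01. Collagen receptors had 2 higher and 7 lower of 10, with the integrin chain Itga2 at 6.03 and the receptor kinase Ddr2, which binds fibrillar collagen, at −2.99. Other basement membrane genes had 8 higher and 6 lower of 14, with the epithelial laminin chain Lama3 at 5.99 and Lama4, a laminin chain of muscle and vessels, at −5.34.

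**Figure D2:**
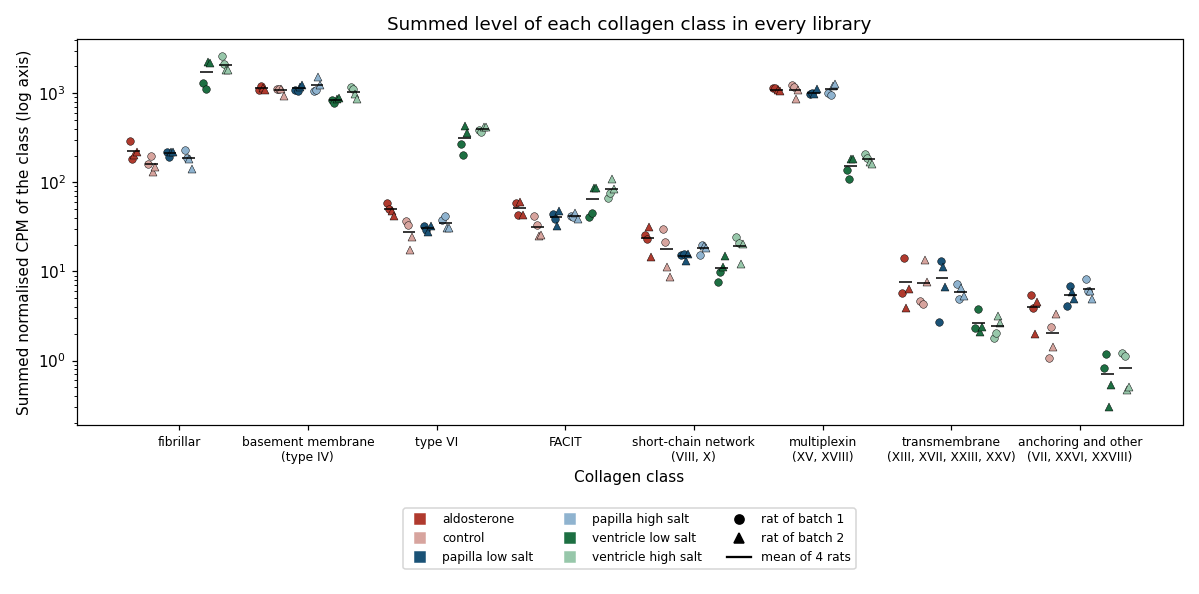
Summed CPM of each collagen class in each of the 24 libraries, on a log axis, with circles for batch 1, triangles for batch 2 and a line at each group's mean. Type VI summed to 41.5 to 58.2 CPM in the aldosterone libraries, above the 17.5 to 36.5 CPM of the control libraries; levels are scaled within each experiment and tissue and are not compared between tissues here.

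With aldosterone, no collagen passed the adjusted threshold, yet the interstitial chains of the papilla leaned higher. Col1a1, Col3a1, Col6a1, Col6a2 and Col6a3 lay 0.83 to 1.47 above control on the log2 scale, while Col4a3 and Col4a4 averaged below control and Col18a1 at its level. None of 34 collagens was called, and neither was any of 17671 genes (0%), in edgeR's quasi-likelihood test with Benjamini-Hochberg adjustment. At an unadjusted p under 0.05, 12 collagens were higher and 1 was lower, where the background was 6.2% and 3.7% of all genes. The log2 fold change was positive for 27 of 34 collagens and for 50.9% of all genes, with a median of 0.46 over the collagens and 0.00 over all genes. The collagen median was 0.29 without aldosterone replicate 1, 0.30 without control replicate 1 and 0.18 in batch 2 alone. Of 33 collagens with a value in both batches, 26 were positive in batch 1, 22 in batch 2 and 20 in both. DESeq2 called 7 collagens higher (Col1a1, Col3a1, Col4a1, Col4a2, Col6a1, Col6a3 and Col12a1), where it called 2.11% of all genes.

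Col1a1, a chain of type I collagen, had a larger fold change than the other chains named here. It lay at 39.0, 22.2, 22.9 and 16.3 CPM in the aldosterone libraries, against 12.0, 15.5, 4.65 and 6.56 CPM in the control libraries. The groups did not overlap, although the lowest aldosterone library was only just above the highest control. The log2 fold change was 1.47 ± 0.25 (adjusted p = 0.182 in edgeR's quasi-likelihood test), with 1.16 in batch 1 and 1.81 in batch 2. Its partner Col1a2 lay at 64.8, 37.6, 65.8 and 31.5 CPM with aldosterone, against 44.7, 33.2, 16.1 and 18.4 CPM in controls, with overlap, at 0.94 ± 0.32 (adjusted p = 0.400). Col3a1 lay at 58.4, 38.0, 35.9 and 28.6 CPM, against 23.6, 34.7, 10.2 and 11.1 CPM in controls. Here control replicate 2 lay within the aldosterone range, and the fold change was 1.15 ± 0.23 (adjusted p = 0.190). The ratio of Col1a1 to Col1a2 counts was 0.349 to 0.602 with aldosterone and 0.268 to 0.467 in controls. Other fibrillar chains lay closer to control, with Col5a2 at 0.50 ± 0.14, and 8 of 10 fibrillar genes were positive with a median of 0.44.

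In type VI all 4 genes tested were positive, with a median of 0.89. Col6a3 lay at 23.0, 19.6, 18.9 and 16.6 CPM in the aldosterone libraries and at 12.9, 11.6, 7.13 and 8.71 CPM in the control libraries. Each aldosterone value was above each control value, the fold change was 0.98 ± 0.13 on the log2 scale (adjusted p = 0.182), and leaving out any library gave 0.89 to 1.06. Col6a1 lay at 13.4, 11.9, 11.1 and 9.23 CPM, against 8.89, 7.00, 3.48 and 5.24 CPM in controls, also without overlap (0.94 ± 0.20, adjusted p = 0.200). Col6a2 overlapped, at 15.8 ± 3.52 CPM with aldosterone, against 9.55 ± 4.57 CPM in controls (SD, n = 4 each).

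In the basement membrane Col4a1 and Col4a2 of the common network leaned higher, and Col4a3 and Col4a4 of the Alport network lower. Col4a1 lay at 238, 257, 264 and 194 CPM with aldosterone, against 200, 193, 159 and 127 CPM in controls. Aldosterone replicate 4 lay just below control replicate 1, and the fold change was 0.51 ± 0.13 (adjusted p = 0.267). Col4a2 averaged 187 ± 19.6 CPM with aldosterone, against 140 ± 25.1 CPM in controls, without overlap, at 0.43 ± 0.11. Col4a3 averaged 409 ± 46.2 CPM with aldosterone, against 469 ± 24.2 CPM in controls (−0.20 ± 0.09), and Col4a4 49.6 ± 4.29 and 58.9 ± 6.34 CPM (−0.25 ± 0.09). Col4a4 was the 1 collagen lower at an unadjusted p under 0.05, and its groups overlapped. Col4a5, the other chain of the Alport network, lay near control, at 0.07 in batch 1 and 0.05 in batch 2. Col18a1 averaged 1080 ± 37.6 CPM with aldosterone, against 1079 ± 168 CPM in controls, a fold change of 0.01 ± 0.10 whose spread in controls was wide.

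The FACIT Col12a1, which binds type I fibrils, lay at 26.6, 23.2, 38.0 and 23.3 CPM with aldosterone, against 20.4, 17.3, 12.1 and 10.2 CPM in controls. The groups did not overlap, the fold change was 0.93 ± 0.25 (adjusted p = 0.276), and it was 0.41 in batch 1 and 1.46 in batch 2. Col16a1, another FACIT, lay at 22.6, 13.2, 12.6 and 11.3 CPM with aldosterone, against 13.9, 7.52, 4.18 and 7.01 CPM in controls, and Col15a1 averaged 21.1 ± 8.02 and 13.2 ± 3.68 CPM (SD, n = 4 each). In all, the groups did not overlap for 6 of 34 collagens, each higher with aldosterone, where 3.15% of all genes did so in that direction. Col14a1, named here after its values were seen, was the sixth, at 0.559 to 0.816 CPM with aldosterone, against 0.234 to 0.381 CPM in controls. Col27a1 gave no direction, at 46.4, 14.0, 10.6 and 41.9 CPM with aldosterone, against 16.5, 45.3, 20.3 and 40.2 CPM in controls. Negative fold changes outside type IV included those of Col10a1 (−0.51 ± 0.41) and Col20a1 (−0.19 ± 0.27).

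**Figure D3:**
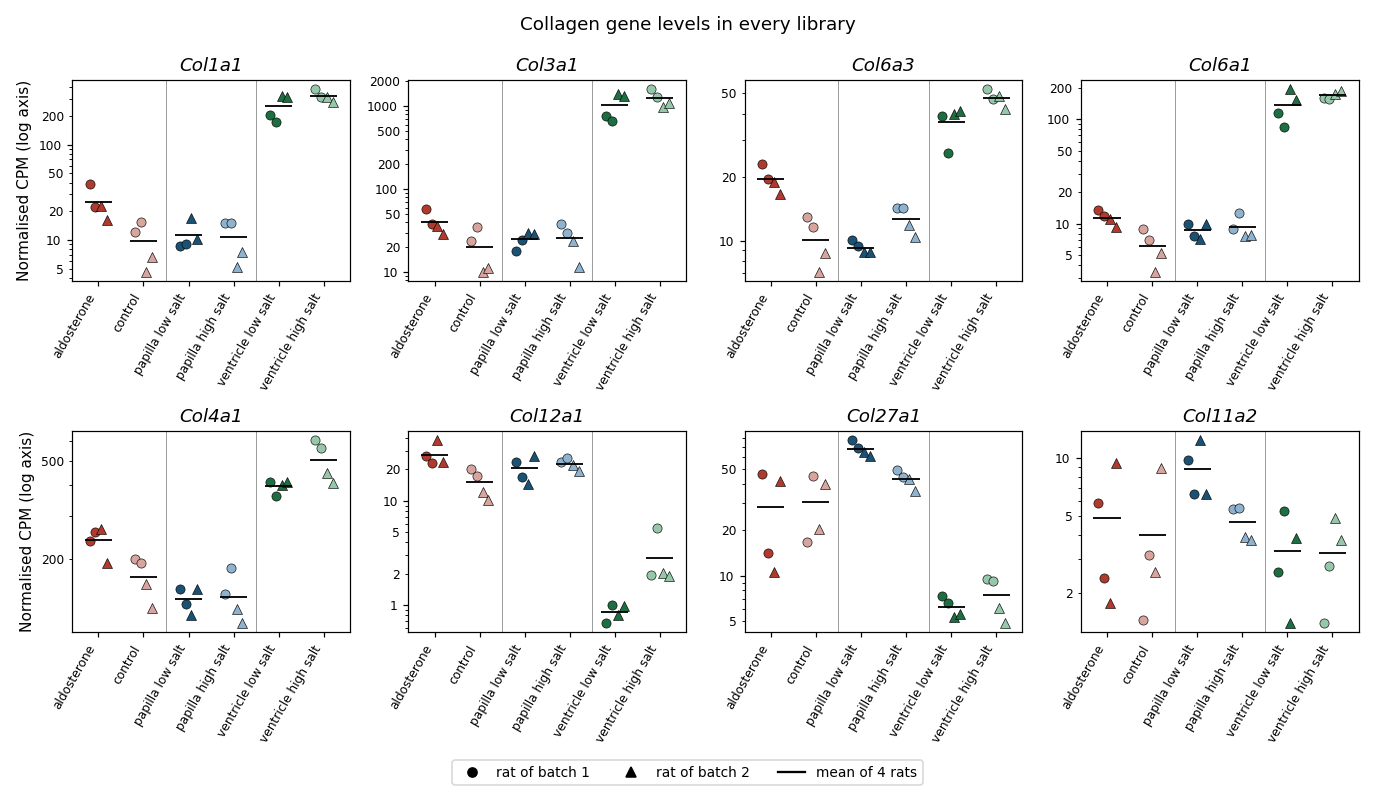
CPM of 8 collagens in each library of the 6 groups, on a log axis, with circles for batch 1, triangles for batch 2 and a line at each group's mean. Aldosterone libraries lie above all control libraries for Col1a1, Col6a3, Col6a1 and Col12a1, low-salt papilla libraries lie above all high-salt papilla libraries for Col27a1 and Col11a2, and Col12a1 has a single high ventricle library at 5.53 CPM.

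Markers of some other cells also differed between the aldosterone and control papilla. Summed proliferation genes lay at 108 to 196 CPM in the aldosterone libraries and 21.8 to 64.5 CPM in the control libraries, with 8 of 8 positive. Fibroblast genes that are not collagens had 7 of 7 tested positive with a median of 0.61, and summed to 528 to 662 CPM with aldosterone, against 434 to 663 CPM in controls, so that their sums overlapped. Thick ascending limb genes summed to 2310 to 4757 CPM with aldosterone, against 1085 to 2702 CPM in controls, and erythroid genes to 3375 to 4779 and 2026 to 2676 CPM. The part of these cells in the collagen values was not tested. Smooth muscle genes were positive in 5 of 7 and endothelial genes in 7 of 8, with medians of 0.46 and 0.04. The sums of both lists overlapped between the groups.

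Genes that make, trim and bind collagen were not called either with aldosterone. For folding and helix modification, 9 of 17 genes were positive with a median of 0.03, and Serpinh1, the collagen chaperone HSP47, lay at 0.40 ± 0.10 (adjusted p = 0.266) and the prolyl 3-hydroxylase P3h1 at 0.39 ± 0.11. For processing and crosslinking, 9 of 11 were positive with a median of 0.42. In that list Adamts2, which removes the amino-terminal propeptide of fibrillar procollagens, had groups that did not overlap at 1.02 ± 0.25 (adjusted p = 0.254), Pcolce, the enhancer of carboxy-terminal cleavage, lay at 0.88 ± 0.26 and the crosslinking enzyme Lox at 0.85 ± 0.31. Among collagen receptors 6 of 9 were positive, with the endocytic receptor Mrc2 at 0.74 ± 0.34, and among degradation genes 6 of 8, with the membrane collagenase Mmp14 at 0.45 ± 0.13 and the inhibitor Timp3 at −0.40 ± 0.15. Of the other basement membrane genes 8 of 14 were positive, with Nid1, which links laminin to type IV collagen, at 0.88 ± 0.19 (adjusted p = 0.213).

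**Figure D4:**
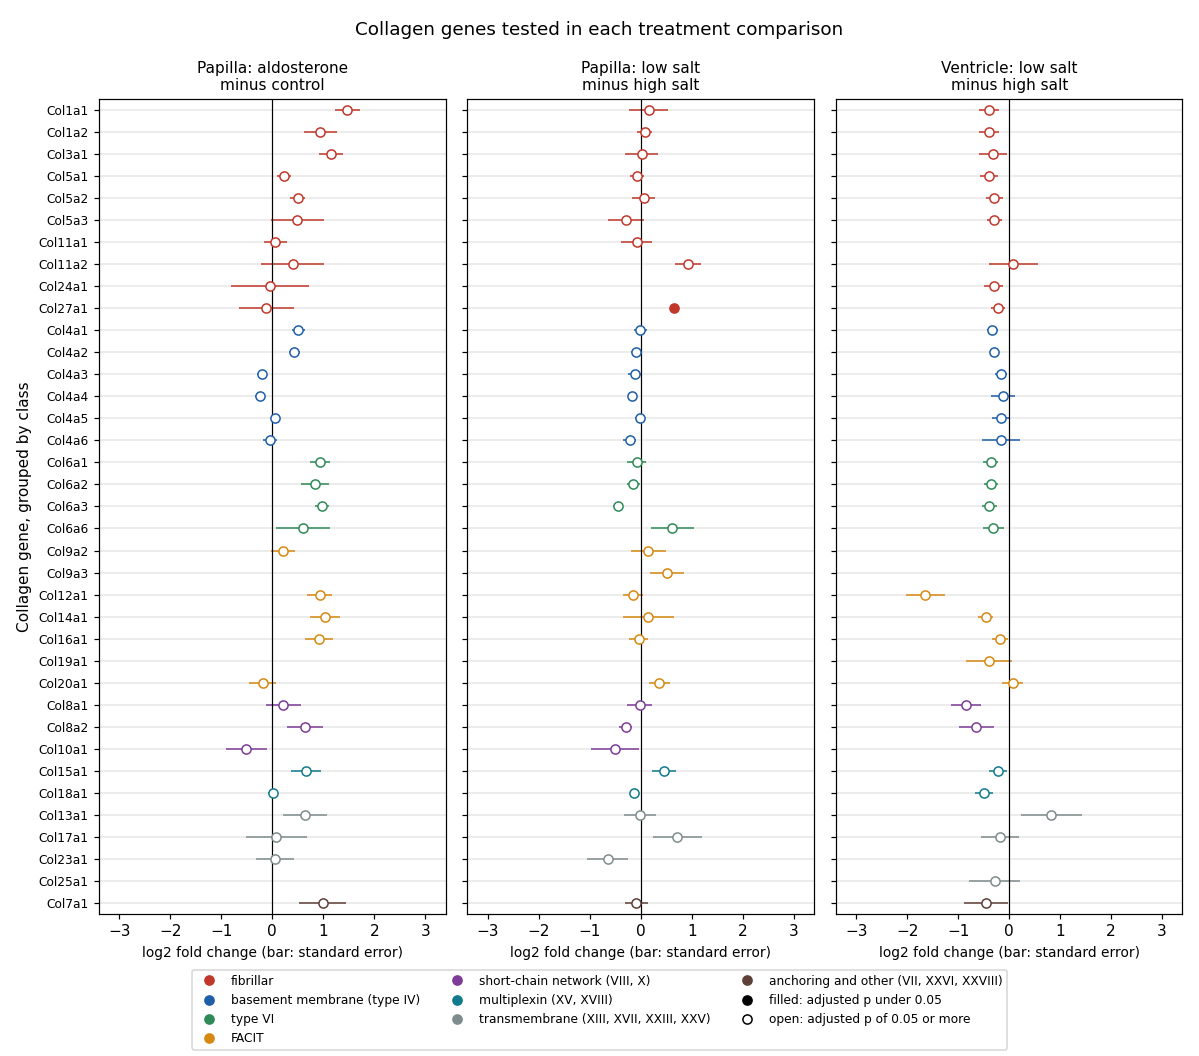
Log2 fold change ± SE of each tested collagen for aldosterone against control in the papilla, low against high salt in the papilla and low against high salt in the ventricle (4 libraries per group), ordered by class; filled points have an adjusted p under 0.05. The filled point is Col27a1 in the papilla on low salt at 0.66, and 27 of 34, 13 of 34 and 3 of 32 points lie above 0 in the 3 panels.

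On low salt the papilla changed in 1 collagen. Col27a1, the fibrillar chain known from cartilage, rose, while no type I, III or IV chain was called. Of 34 collagens 1 was called, where 2.46% of all 18449 genes were called (1.09% higher), so the share of collagens is near the background. At an unadjusted p under 0.05, 2 were higher and 3 lower, where the background was 8.98% and 10.6%. Of the fold changes 13 of 34 were positive, as were 49.3% of all genes, with a median of −0.03. DESeq2 called 3, Col27a1 and Col11a2 higher and Col6a3 lower, where it called 9.19% of all genes.

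Col27a1 lay at 77.3, 68.8, 64.7 and 61.5 CPM in the low-salt papilla libraries, against 49.4, 44.4, 42.8 and 35.8 CPM in the high-salt papilla libraries. All low-salt values were above all high-salt values, in both batches. The log2 fold change was 0.66 ± 0.08 (adjusted p = 0.0163 in edgeR's quasi-likelihood test), with 0.64 in batch 1 and 0.69 in batch 2. Leaving out each library gave 0.61 to 0.71, and the call was lost without high-salt replicate 2 (adjusted p = 0.0556) or low-salt replicate 3 (adjusted p = 0.0543). Its promoter is among those printed above. Of the other cartilage-type chains Col11a2 had groups apart, whereas Col11a1 gave no direction, at −0.22 in batch 1 and 0.06 in batch 2. Col11a2 lay at 9.73, 6.54, 12.4 and 6.48 CPM on low salt, against 5.47, 5.53, 3.91 and 3.76 CPM on high salt, at 0.93 ± 0.26 (adjusted p = 0.0992).

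Col6a3 leaned the other way in the low-salt papilla. It lay at 10.1, 9.41, 8.81 and 8.80 CPM on low salt, against 14.3, 14.2, 11.9 and 10.4 CPM on high salt. The groups did not overlap, though low-salt replicate 1 came close to the lowest high-salt value, and the fold change was −0.45 ± 0.11 (adjusted p = 0.0663). Groups without overlap were thus 2 of 34 higher and 1 of 34 lower, against 4.83% and 6.62% of all genes. The chains Col6a1 and Col6a2 averaged 8.66 ± 1.48 and 11.2 ± 1.21 CPM on low salt, and 9.25 ± 2.29 and 12.4 ± 1.36 CPM on high salt, with overlap.

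The interstitial chains had no shared direction between batches on low salt. Col1a1 lay at 8.54, 9.15, 16.9 and 10.2 CPM in the low-salt papilla and at 15.2, 15.0, 5.15 and 7.55 CPM in the high-salt papilla. In batch 1 the low-salt libraries were the lower ones (−0.77) and in batch 2 the higher ones (1.09), for a joint value of 0.15 ± 0.39. Col3a1 behaved alike, at 18.1, 24.6, 29.4 and 28.7 CPM on low salt, against 38.2, 29.9, 23.98 and 11.5 CPM on high salt, with −0.67 in batch 1 and 0.72 in batch 2. Fibroblast genes that are not collagens summed to 412 to 494 CPM on low salt, against 422 to 487 CPM on high salt. In type IV none of 6 fold changes was positive, with a median of −0.11, and the values were small: Col4a1 averaged 139 ± 16.2 CPM on low salt, against 141 ± 31.9 CPM on high salt, Col4a2 118 ± 12.0 and 126 ± 19.4 CPM, and Col4a4 68.9 ± 9.49 and 77.9 ± 13.6 CPM (−0.17 ± 0.06). Col8a2, a short-chain collagen, averaged 13.8 ± 1.36 CPM on low salt, against 16.9 ± 2.04 CPM on high salt, and Col18a1 996 ± 73.3 and 1099 ± 152 CPM. On the higher side Col15a1 averaged 22.4 ± 7.78 and 16.3 ± 7.32 CPM, and Col20a1 and Col17a1 lay at 0.36 ± 0.21 and 0.72 ± 0.48 on the log2 scale.

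Of the genes that make collagen, 1 was called on low salt in the papilla, where 2.46% of all genes were called (1.37% lower). Plod3, a lysyl hydroxylase that also adds sugars to collagen chains, fell to 85.7, 85.3, 77.9 and 80.7 CPM in the low-salt libraries, against 126, 153, 101 and 102 CPM in the high-salt libraries. The groups did not overlap, and the fold change was −0.53 ± 0.09 (adjusted p = 0.0352 in edgeR's quasi-likelihood test). The call of Plod3 was not followed under the alternatives. Over all genes 454 were called, against 52 with the replicate number as a block. Other edgeR settings gave from 0 in batch 1 alone to 550 at 1 CPM in 4 libraries. In the list of folding and modification genes, which holds Plod3, 3 of 18 were positive with a median of −0.24, and Serpinh1 lay at 0.08. Processing genes had 4 of 11 positive, with the procollagen protease Adamts3 at 1.44 ± 0.30 (adjusted p = 0.0504), Loxl4, a crosslinking enzyme, at −1.22 ± 0.26 (adjusted p = 0.0523), Pcolce at −0.16 and Lox at 0.21. Collagen receptors had 5 of 10 positive, with the receptor kinase Ddr1 at 0.33 ± 0.08, and degradation genes 5 of 9, with Timp3 at −0.56 ± 0.12 (adjusted p = 0.0504). Of the other basement membrane genes 11 of 14 were positive with a median of 0.17, and none was called.

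On low salt the ventricle held no collagen past the threshold, but nearly all collagens averaged lower than on high salt. The main type I, III, IV and VI chains had log2 fold changes of −0.40 to −0.30, and Col12a1 had the lowest at −1.65. None of 32 collagens was called in edgeR's quasi-likelihood test, where 8 of 15473 genes (0.0517%) were. At an unadjusted p under 0.05, none was higher and 9 were lower, where the background was 5.68% and 4.92%. The 9 became 5 without high-salt replicate 1, low-salt replicate 1 or low-salt replicate 2, and 6 without the library with kidney genes. Of the fold changes 29 of 32 were negative, as were 51.8% of all genes, with a median of −0.31 over the collagens (−0.28 without the library with kidney genes) and −0.01 over all genes. DESeq2 called 2 lower, Col12a1 and Col4a2, where it called 1.96% of all genes.

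Much of this lean lay in batch 1. Of the 31 collagens with a value in both batches, 27 were negative in batch 1 and 16 in batch 2, and 12 in both, where 49.7% of all genes were negative in batch 1 and 50.6% in batch 2. Col3a1 lay at 757, 658, 1403 and 1324 CPM in the low-salt ventricle, against 1614, 1298, 987 and 1077 CPM in the high-salt ventricle. The low-salt libraries were thus the lower ones in batch 1 (−1.04) and the higher ones in batch 2 (0.40). Col1a1 lay at 207, 173, 325 and 320 CPM on low salt, against 386, 318, 319 and 283 CPM on high salt, with −0.89 in batch 1 and 0.10 in batch 2. Col1a2 gave −0.88 and 0.09 and Col14a1 −0.76 and −0.17. Fibroblast genes that are not collagens summed to 1179, 1029, 2264 and 2044 CPM on low salt, against 1543, 1381, 2323 and 2215 CPM on high salt, with none of 9 positive. These sums were higher in batch 2 in both groups, whereas Col3a1 on high salt was lower in batch 2. Cardiomyocyte genes summed to 70170, 62010, 52070 and 52950 CPM in the low-salt libraries and 60120 to 65030 CPM in the high-salt libraries. Erythroid genes, with 7 of 7 positive and a median of 1.32, summed to 16940, 53850, 18800 and 41650 CPM on low salt, against 29690, 32320, 8694 and 2146 CPM on high salt. Atrial genes summed to 33.6 to 209 CPM on low salt, against 324, 110, 315 and 2533 CPM on high salt. The part of these cells, and of the piece of ventricle taken, was not tested.

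**Figure D5:**
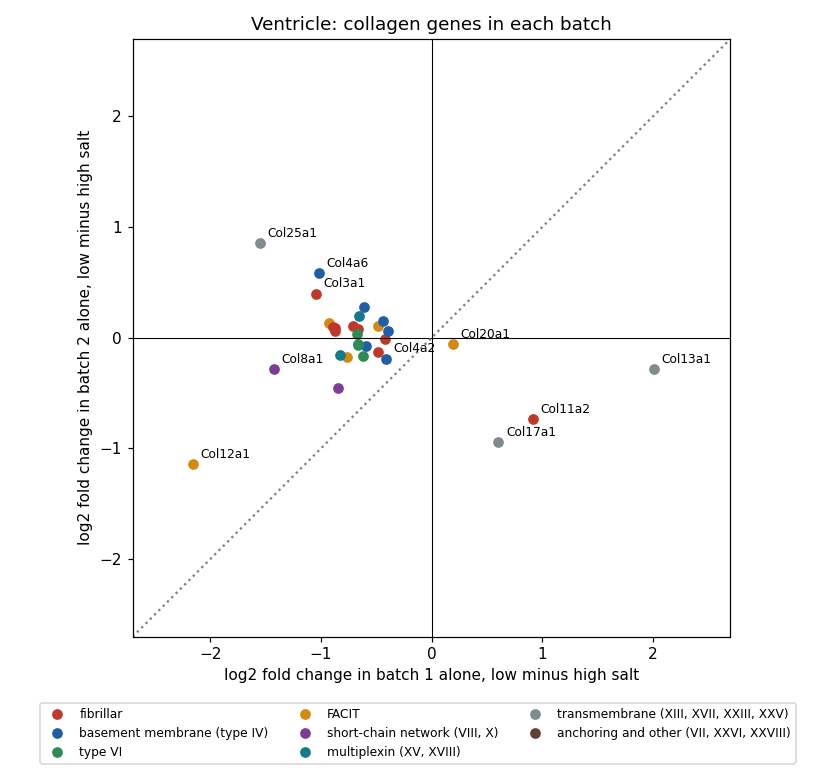
Log2 fold change of each collagen for low against high salt in the ventricle, in batch 1 (horizontal axis) and batch 2 (vertical axis), each from 2 libraries per group and coloured by class; the lines mark 0. Of 31 collagens 27 lie left of the vertical line and 16 below the horizontal line, with Col12a1 low in both batches at −2.16 and −1.14.

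Col4a1, Col4a2, Col6a1, Col6a2 and Col6a3 had negative values in both batches in the ventricle, though small ones in batch 2. There Col6a1 lay at −0.063 ± 0.131, Col6a2 at −0.056 ± 0.104, Col6a3 at −0.168 ± 0.096 and Col4a2 at −0.188 ± 0.107. Col4a5 turned from −0.612 in batch 1 to 0.282 in batch 2, and Col4a3, Col4a4, Col4a6 and Col6a6 also turned from negative to positive. Col4a1 lay at 411, 361, 400 and 408 CPM on low salt, against 603, 560, 446 and 405 CPM on high salt. Only high-salt replicate 4 reached the low-salt range, and the fold change was −0.33 ± 0.11, with −0.59 in batch 1 and −0.08 in batch 2. Col4a2 lay at 372, 346, 354 and 371 CPM, against 480, 475, 449 and 375 CPM on high salt, without overlap but with high-salt replicate 4 just above the low-salt range (−0.30 ± 0.08, adjusted p = 0.269). In the type VI trimer Col6a3 lay at 38.8, 26.0, 40.1 and 41.2 CPM on low salt, against 52.5, 47.1, 48.8 and 42.3 CPM on high salt, also without overlap (−0.39 ± 0.14, adjusted p = 0.392). Col6a1 averaged 136 ± 48.2 CPM on low salt, against 169 ± 14.7 CPM on high salt, and Col6a2 137 ± 45.8 and 169 ± 14.8 CPM, with wide low-salt spread.

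Col12a1 had the lowest fold change in the ventricle. It lay at 0.676, 0.996, 0.806 and 0.985 CPM in the low-salt libraries, from 17 to 30 counts, against 1.96, 5.53, 2.03 and 1.92 CPM in the high-salt libraries, from 53 to 173 counts. The groups did not overlap, and the log2 fold change was −1.65 ± 0.39 (adjusted p = 0.226). The value of 5.53 CPM belongs to the library with kidney genes, and without it the fold change was −1.17 ± 0.25 (adjusted p = 0.366). The groups without overlap were 3 of 32 lower and none higher, against 2.04% and 2.69% of all genes. Col8a1, a short-chain collagen of vessel walls, lay at 6.60, 8.60, 8.59 and 14.1 CPM on low salt, against 22.5, 18.3, 9.86 and 17.7 CPM on high salt (−0.85 ± 0.30), and Col18a1 averaged 21.6 ± 3.72 and 30.3 ± 6.69 CPM. The 3 positive fold changes were those of Col13a1 (0.83 ± 0.60), Col11a2 (0.08 ± 0.48) and Col20a1 (0.07 ± 0.20).

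Genes around collagen leaned lower in the ventricle as well, and none was called. Of the processing genes 1 of 12 was positive with a median of −0.43, with Pcolce at −0.47 ± 0.20 and Lox at −0.55 ± 0.24. Of the folding genes 4 of 18 were positive, with Serpinh1 at −0.13 ± 0.08 and the cyclophilin Ppib at −0.15, and of the receptors 1 of 9, with Mrc2 at −0.55 ± 0.15. Other basement membrane genes had none of 13 positive with a median of −0.23. In that list Hspg2, the heparan sulfate proteoglycan perlecan, lay at −0.37 ± 0.06 (adjusted p = 0.122) and the laminin chain Lamb1 at −0.38 ± 0.07 (adjusted p = 0.157), and the groups of Lamb1 did not overlap. Timp4, a metalloproteinase inhibitor of the heart, was the degradation gene with the smallest p, at 0.97 ± 0.27 (adjusted p = 0.272).

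The low-salt responses of the tissues were compared in 1 fit of 16 libraries, as the papilla response minus the ventricle response. This fit shares its libraries with the comparisons within each tissue and takes the libraries of both tissues as independent. The replicate block used below lies within each tissue, so it does not link libraries that may share a rat. Col27a1 was the 1 of 38 collagens called, with a difference of 0.89 ± 0.14 (adjusted p = 0.0228), where 0.83% of all 19408 genes were called. In the ventricle it lay at 7.39, 6.57, 5.37 and 5.58 CPM on low salt, against 9.52, 9.17, 6.11 and 4.88 CPM on high salt, with overlap (−0.22 ± 0.13). The call was lost without high-salt ventricle replicate 2 (adjusted p = 0.0626) or 3 (0.0535) or low-salt ventricle replicate 1 (0.0513), and without a batch term (0.141) or with the replicate number as a block (0.0623). DESeq2 called 2, Col27a1 and Col12a1, where it called 4.23% of all genes. The difference was positive for 29 of 38 collagens and 52.8% of all genes. At an unadjusted p under 0.05, 2 collagens were higher and none lower, where the background was 7.1% and 7.33%. The other interstitial chains were not called. Col12a1 lay at 1.52 ± 0.44 (adjusted p = 0.127, and 1.03 without high-salt ventricle replicate 2), Col1a1 at 0.54 ± 0.46 and Col6a3 at −0.05. Among genes around collagen, Hspg2 (0.60 ± 0.09, adjusted p = 0.0228), Adamts3 (1.85 ± 0.36, adjusted p = 0.0351) and Lamb1 (0.58 ± 0.12, adjusted p = 0.0450) were called higher in the papilla response. These calls were not followed under the alternatives. Over all genes 161 were called, against 14 without a batch term and 16 with the block. Other edgeR settings gave from 11 without high-salt ventricle replicate 2 to 203 at 1 CPM in 4 libraries.

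The aldosterone response minus the low-salt response, both in the papilla, was fitted over 16 libraries of the separate experiments, whose rats differed in the Xist and Y-linked pattern described above. Low dietary Na is known to raise an animal's own aldosterone. The low-salt and high-salt papilla libraries are those of the comparison above. Col6a3 was the 1 of 36 collagens called, with a difference of 1.40 ± 0.16 (adjusted p = 0.0123), where 0.0528% of all 18938 genes were called. Its fold changes were 0.98 with aldosterone and −0.45 on low salt, on opposite sides of 0 and each without overlap of the groups. The call was lost without any 1 of 4 libraries, high-salt papilla replicates 1 and 2 and low-salt papilla replicates 1 and 3, at differences of 1.38 to 1.42, and without a batch term (1.39, adjusted p = 0.0800) or with the replicate number as a block (1.40, adjusted p = 0.0660). At an unadjusted p under 0.05, 11 collagens were higher in the aldosterone response, where the background was 6.75%, and none was lower (background 6.37%). DESeq2 called 2, Col6a3 and Col6a1, where it called 3.47% of all genes. The 11 included Col6a1 at 1.00 ± 0.28 (adjusted p = 0.126), Col4a2 at 0.50 ± 0.16, Col12a1 at 1.05 ± 0.34, Col1a1 at 1.30 ± 0.49 and Col3a1 at 1.12 ± 0.43. Col27a1, the collagen that rose on low salt, had a difference of −0.80 ± 0.60.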

How the data were processed

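RNA was sequenced from 24 tissue samples (6 groups of 4 rats), assigned to groups by the sample titles and characteristics. Per the labels' protocols, stranded mRNA libraries (TruSeq) were read from a single end (NovaSeq X Plus). Salmon, Trimmomatic, MultiQC and bcl2fastq 2.19 are the tools in the submitters' processing notes. Build, annotation and strand setting: not given in the sources used here. How reads shared between related chains were split was not checked. The authors deposited expected counts (estimated, not always whole) in 3 tables of 36856 genes, 1 per experiment and tissue, unscaled.

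Expected counts were rounded to whole numbers. Genes were kept with edgeR's filterByExpr (minimum count 10), scaled by TMM and tested with edgeR 4.0.16 (quasi-likelihood F test, R 4.3.3) with batch as a term within each table, and without it between tissues. P-values were adjusted by Benjamini-Hochberg over every gene in a fit, and calls are at 0.05. SEs are from the log2 fold change and its F value. CPM levels are TMM-scaled within each table, except between tissues. DESeq2 1.42.0 was an alternative, as were other scalings, filters, batch settings and leaving out each library. The test scripts were tested on simulated data.

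In each comparison 8 chains (Col1a1, Col1a2, Col3a1, Col4a1, Col4a2, Col6a1, Col6a2 and Col6a3), every collagen past the threshold and up to 4 more per direction with the smallest p at 1 CPM or more were named, and of each list of collagen-related genes those past the threshold, or up to 2 with the smallest p, besides Serpinh1, Lox and Pcolce (between tissues, where most passed, examples chosen after their values were seen). A few genes that this rule or a marker list names are not reported here. The members, gene lists and tests were chosen with earlier results of these data known. Between tissues same-numbered libraries deviated together (correlations 0.22 to 0.31), each best with its own number. With batch removed the values were 0.22 and 0.12, again each best with its own number. Whether such libraries came from the same rat is not stated. In the ventricle these correlations were 0.13 to 0.22, but 0.00 and −0.05 once batch, which the numbers carry and the fit holds, was removed.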

Additional observations from a re-analysis of the deposited data

Results flagged for a closer look

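In the groups of 4, a library stood apart from the other 3 for 3 of 94 pairs of a named collagen and a group, and chance sets about 1 in 20 such groups apart. Col16a1 lay at 22.6 CPM in aldosterone replicate 1, against 11.3 to 13.2 CPM in the other aldosterone libraries. Col6a3 lay at 26.0 CPM in low-salt ventricle replicate 2, against 38.8 to 41.2 CPM in the others. Col12a1 lay at 5.53 CPM in high-salt ventricle replicate 2, the library with kidney genes, against 1.92 to 2.03 CPM in the others.

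In 2 collagens the responses differed between settings by a test of the difference itself. The low-salt response of Col27a1 in the papilla exceeded that in the ventricle by 0.89 on the log2 scale (adjusted p = 0.0228 in edgeR's quasi-likelihood test). The aldosterone response of Col6a3 exceeded its low-salt response in the papilla by 1.40 (adjusted p = 0.0123), between experiments whose rats also differed in the Xist and Y-linked pattern. Neither call held with the replicate number as a block (adjusted p = 0.0623 for Col27a1 and 0.0660 for Col6a3), without a batch term (0.141 and 0.0800), or on leaving out some single libraries, 3 for Col27a1 and 4 for Col6a3.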

How the results depend on the processing

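Counts of called collagens kept within 1.5 times of the reported ones under DESeq2 size factors, upper quartile scaling, a minimum of 1 CPM in 4 libraries and no minimum, in all 6 comparisons. The DESeq2 Wald test called 7 collagens with aldosterone, 3 in the papilla on low salt, 2 in the ventricle on low salt, and 2 in each comparison of responses. In the papilla on low salt, batch 1 alone and batch 2 alone called 0. Leaving out each library gave 0 to 1 there and in both comparisons of responses, and without a batch term both gave 0. The cause of these changes was not tested.

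With the replicate number as a block, the 3 comparisons of treatment within a table had the same counts of calls (0, 1 and 0), both comparisons of responses had 0, and 30 collagens were called between tissues. Col27a1 then differed between tissues' responses by 0.89 (adjusted p = 0.0623) and Col6a3 between the papilla responses by 1.40 (adjusted p = 0.0660). In the comparisons of responses the block lay within each table and did not link the tissues. Within the papilla tables same-numbered libraries deviated together only in part, with correlations of −0.03 to 0.40 for aldosterone and −0.04 to 0.31 for low salt. With batch removed they were 0.09 and 0.14 for aldosterone and 0.15 and −0.16 for low salt. Not every library matched best with its own number, so a pairing by number was not shown there. Col11a1, in the comparison of tissues' responses, turned to 0.006 with the block and 0.014 without a batch term.

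Within tissues and between responses, directions that turned were mostly of values close to 0 or split by batch. Between tissues they turned with the scaling or the libraries used. In the papilla on low salt, Col4a1 was 0.001 with the DESeq2 Wald test and with DESeq2 size factors, 0.003 with upper quartile scaling, 0.004 at 1 CPM in 4 libraries and 0.199 in batch 2. There Col3a1 was −0.039 without a batch term, batch 1 alone turned Col1a1 (−0.771), Col1a2 (−0.275) and Col3a1 (−0.670), and batch 2 alone Col4a2 (0.002), Col6a1 (0.150), Col6a2 (0.014) and Col4a6 (0.026). Leaving out each library gave −0.176 to 0.417 for Col1a1, −0.012 to 0.219 for Col1a2, −0.308 to 0.260 for Col3a1, −0.121 to 0.116 for Col4a1, −0.180 to 0.005 for Col4a2 and −0.226 to 0.085 for Col6a1. In the ventricle, batch 2 alone turned Col1a1 (0.097), Col1a2 (0.087), Col3a1 (0.399), Col20a1 (−0.054) and Col11a2 (−0.738), and single libraries moved Col11a2 over −0.326 to 0.483 and Col20a1 over −0.049 to 0.184. Between the tissues' responses Col5a3 was 0.012 with upper quartile scaling, 0.007 with no filter and 0.006 at 1 CPM in 4 libraries, and single libraries moved Col5a3 over −0.293 to 0.222, Col11a1 over −0.707 to 0.750, Col4a4 over −0.284 to 0.077, Col4a6 over −0.359 to 0.215 and Col6a3 over −0.217 to 0.033. Between tissues Col11a2 was 0.504 in the low-salt libraries. Scaling by library totals alone, added after seeing the data, gave 0.512 for Col11a2, 0.280 for Col16a1 and 0.527 for Col20a1. Col16a1 had been called lower in the papilla. Col20a1, negative and not called before, was then called higher (adjusted p = 0.0481 in edgeR's quasi-likelihood test). Upper quartile scaling there ended the call of Col16a1 (−0.43, adjusted p = 0.0657).

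Low counts limit Col12a1, Col11a2 and Col9a2 in the ventricle and Col14a1 in the papilla, and all p-values rest on 4 rats per group.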
